A study of Equus caballus with 37 samples.

Results

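POM121C is the gene of a nuclear pore membrane protein, and it was followed here in blood RNA of Arabian horses as 1 of the 26991 genes of the count table (Ensembl identifier ENSECAG00000000464). The symbol is the orthologue that the study assigned to an uncharacterized gene. The gene was chosen by its measured levels. These were higher after the gallop phase than after the canter phase and higher again at the end of the racing season. The differences among these 3 periods (T1, T2 and T3) are therefore given as descriptions with no test. The choice did not use the levels of the untrained horses or the sex of the horses. Each comparison with T0 is therefore only partly independent of it, since its other arm (T1, T2 or T3) holds values that chose the gene. The study also lists this gene among those that differ between T0 and T3, and the symbol comes from the study. T0 levels thus had a part in which genes could be named. The comparison of T0 with T3 is not independent of earlier results either.

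The 37 libraries came from jugular blood and fell into 4 periods: 6 from untrained horses (T0), 12 from horses sampled in March after slow canter work (T1), 11 in May after intense gallop work (T2) and 8 in October when the racing season ended (T3). By the labels, 2 of the T0 horses, 5 of those of T1, 4 of those of T2 and 4 of those of T3 were mares, and the others were stallions. Horses of T1, T2 and T3 are labelled 3 years old, as is T0 replicate 2. The other T0 horses are labelled 2.5 years old, so in each comparison with T0 training and age cannot be told apart. T1, T2 and T3 also differ in month, and the study varied the feed mixture with the stage of training. Training, season and feed therefore cannot be told apart between these periods, and the labels give no month for T0. All horses were healthy, of 1 breed and from 1 stud, and trained horses were sampled before the day's exercise. The study sampled the trained horses repeatedly, and it states that some of the untrained horses did not enter training. Whether other untrained horses are among the trained ones is not given by the labels, which name no horse. Libraries were therefore compared as independent samples, and p-values measure the spread between these libraries.

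Nuclear pores are the channels of the nuclear envelope through which RNA leaves the nucleus and proteins enter or leave it. POM121 proteins are among the few pore components that span the membrane. They help to anchor the central ring of the channel and take part in building new pores, and in humans POM121C is a close copy of POM121. Mature red cells of mammals have no nucleus, so whole-blood RNA for a nuclear pore protein comes mainly from white cells and their relatives.

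Library totals were 3810631 to 14932603 counts (median 10611594), and levels are given as CPM, which stands for a gene's counts relative to the library total multiplied by its TMM factor. In a library of median size 1 CPM rested on about 11.5 reads. The TMM factor is low where a set of genes takes up more of a library than in the others. T0 libraries had factors of 1.17 to 1.24, T1 libraries of 0.410 to 1.14, T2 libraries of 0.949 to 1.21 and T3 libraries of 1.05 to 1.25. In T1, 5 libraries (replicates 1, 2, 3, 4 and 11) stood apart with factors from 0.410 to 0.696, while the other 7 had 0.922 to 1.14. The study lists shares of mapped reads that varied among T1 samples, and several sequencing pools. Neither could be tied to libraries by the labels, so whether these 5 differed in them was not tested. These 5 also had fewer genes with a count, 13205 ± 1010 (SD, n = 5) against 14587 ± 394 (SD, n = 7). Marker genes of blood cell types could not be paired with identifiers in the counts (0 of 37 symbols), so the label blood and the mix of white cells were not checked. In bulk blood, fewer cells of a type and less RNA per cell cannot be told apart.

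POM121C had at least 1 count in every library and passed the filter on low counts in every comparison. It was lowest in T1 and highest in T3. The mean level of T1 was 9.97 ± 5.55 CPM (SD, n = 12) and that of T2 was 22.1 ± 7.86 CPM (SD, n = 11). Untrained horses had 32.9 ± 1.98 CPM (SD, n = 6), and the mean of T3 was 39.0 ± 9.01 CPM (SD, n = 8). Each period overlapped its neighbour in this order, and neither T0:T2 nor T0:T3 passed the test given below.

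The untrained horses formed a narrow group. In T0 the lowest library had 30.4, the median was 32.9 and the highest library had 36.2 CPM, from counts of 379 to 477 reads. The coefficient of variation of 6.02% stood against the 4.76% that counting alone gives at these depths. On the log2 CPM scale the SD of POM121C in T0 was 0.086, against a median SD of 0.24 over 12025 genes, and 4.33% of genes had a smaller one.

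In T1 the lowest library had 3.32, the median was 9.27 and the highest, replicate 6, had 22.5 CPM. The smallest count was 6 reads in replicate 11, the library with the lowest total, with an exact Poisson interval of 1.41 to 8.35 CPM. The 5 libraries with a low TMM factor held the 5 lowest values of the period, 3.32 to 6.79 CPM, and the other 7 had 8.46 to 22.5. POM121C thus varied with the TMM factor of the library within T1. The parts of composition, library quality and sequencing pool in its low level were not tested. These intervals cover counting error only.

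In T2 the lowest library, replicate 7, had 7.08, the median was 23.7 and the highest, replicate 10, had 32.1 CPM. Replicate 7 also had the lowest TMM factor of its period (0.949), and replicate 2, next lowest in POM121C with 11.2 CPM, had 1.0. Replicate 1, with the second-lowest factor (0.968), had 20.1 CPM, above replicate 2. The SD on the log2 scale was 0.66 in T2, where the median gene had 0.37, and 85.6% of genes varied less.

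In T3 the lowest library had 27.5, the median was 40.8 and the highest had 50.3 CPM. Replicates 3, 5, 6 and 7 had 44.4 to 50.3 CPM and the other 4 had 27.5 to 37.3. The upper 4 also had larger totals, 12976715 to 14932603 counts against 10505578 to 12564366, and higher TMM factors, 1.17 to 1.25 against 1.05 to 1.13. Each of these sets held 2 mares and 2 stallions.

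**Figure D1:**
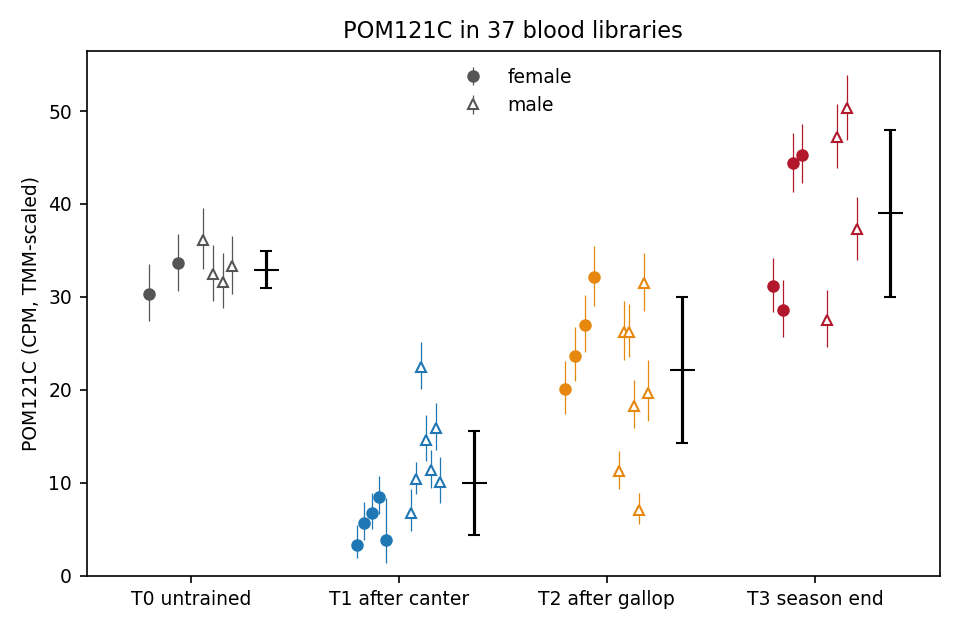
POM121C in each library (vertical axis, TMM-scaled CPM) by period (horizontal axis), with filled circles for mares and open triangles for stallions, thin bars for the 95% exact Poisson interval of each count, and the black bar at the right of each period for the mean ± SD. The T0 libraries lie between 30.4 and 36.2 CPM, every T1 library lies at or below 22.5, and T3 spans 27.5 to 50.3.

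Against untrained horses, POM121C was lower after the canter phase, in T1 libraries whose low level relative to T2 and T3 had chosen the gene. The log2 fold change in T0:T1 was -1.71 (standard error 0.29, 95% confidence interval -2.3 to -1.11, adjusted p = 0.00015 from edgeR), a level 3.26-fold lower in T1. Each of the 12 T1 libraries lay below each of the 6 T0 libraries. How common such separation was among all genes was not counted. Of all genes tested in T0:T1, 58.1% were called differentially expressed, which required an adjusted p below 0.05 and a change of 1.3-fold or more. POM121C was thus 1 of many called genes in this comparison. The size was less common, since 3.92% of genes had a lower log2 fold change. Without the 5 T1 libraries of low TMM factor its log2 fold change stood at -1.26 (standard error 0.18, edgeR adjusted p = 5.4e-05). With the log2 TMM factor as a term in the fit it was -0.93 (standard error 0.17, adjusted p = 0.00068 from edgeR), and the factors of T0 and T1 did not overlap.

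After the gallop phase POM121C had a mean below that of untrained horses, but the difference did not pass the test. The log2 fold change in T0:T2 was -0.55 (standard error 0.22, 95% confidence interval -1.02 to -0.08, adjusted p = 0.061 from edgeR), while 33.4% of genes were called. All 11 T2 libraries lay below the T0 median, and 2 of them, replicates 9 and 10, lay within the T0 range. The call depended on the analysis. The gene passed with DESeq2 (-0.55, adjusted p = 0.045) and with edgeR on library totals in place of TMM scaling (-0.69, adjusted p = 0.042). In edgeR it also passed without T2 replicate 7 (-0.45, adjusted p = 0.042), replicate 9 (-0.62, adjusted p = 0.037) or replicate 10 (-0.61, adjusted p = 0.038). An exact permutation test of log2 CPM (-0.68) gave an unadjusted p = 0.017. On that scale the main edgeR fit also lay below 0.05 (unadjusted p = 0.025). With the log2 TMM factor as a term the difference was 0.00058 (standard error 0.17).

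At the end of the season POM121C lay within the range of the untrained horses or above it in 6 of 8 libraries. The log2 fold change in T0:T3 was 0.23 (standard error 0.13, 95% confidence interval -0.05 to 0.50, adjusted p = 0.21 from edgeR), and 19.6% of genes were called. The study lists POM121C among the genes that differ in T0:T3. Neither the main fit here nor DESeq2 (0.24, adjusted p = 0.19) gave that call. Of the 8 T3 libraries, 5 lay above the whole T0 range, 1 within it and 2 below it. With the log2 TMM factor as a term POM121C was called, with 0.39 (standard error 0.078, adjusted p = 0.0032 from edgeR). These 3 comparisons share the T0 libraries and are not independent of each other.

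The differences that chose the gene were as follows. Going from T1 to T2, POM121C differed by 1.13 on the log2 scale (standard error 0.27), a 2.18-fold higher level, and 99.7% of genes had a lower value. In T1:T2, 10 of 11 T2 libraries lay above the T1 median and 5 lay within the T1 range, and 32% of genes were called. From T2 to T3 it was 0.80 (standard error 0.21), a 1.74-fold higher level, with all 8 T3 libraries above the T2 median, 3 of them within the T2 range, and 44% of genes called. From T1 to T3 it was 1.94 (standard error 0.27), 3.84-fold, with no overlap between the groups, and 65% of genes were called. The share of all genes without such overlap was not counted. Over the 11164 genes tested in both steps, 691 (6.19%) were called higher in both, and 37.1% had a log2 fold change above 0 in both. T1:T2 and T2:T3 share the T2 libraries.

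The size of these steps moved with the libraries and with the TMM factor. Without the 5 T1 libraries of low factor the T1:T2 value was 0.73 (standard error 0.25) and the T1:T3 value 1.53 (standard error 0.20). With the log2 TMM factor as a term the values were 0.49 (standard error 0.20) in T1:T2, 0.46 (standard error 0.15) in T2:T3 and 1.2 (standard error 0.17) in T1:T3. In T1:T2, 0 of all genes were called by edgeR in either fit (1444 and 565 at an unadjusted p below 0.05), against 3584 with all libraries and no such term.

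**Figure D2:**
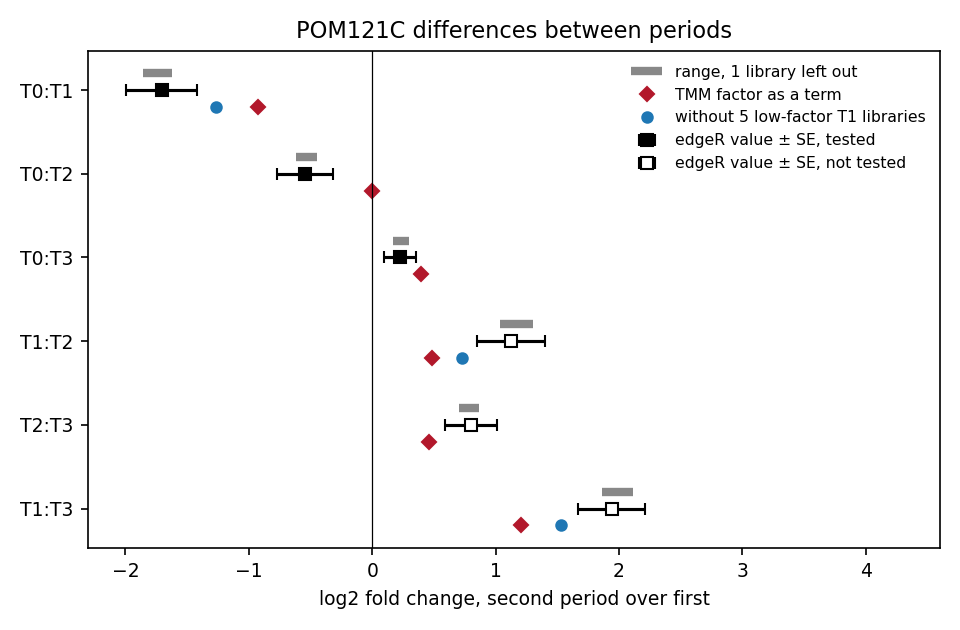
Log2 fold change of POM121C (horizontal axis, second period over first) in the 6 pairs of periods (vertical axis), as squares with bars of 1 standard error, filled for the 3 tested comparisons with T0 and open for the 3 that chose the gene. Grey bars span the values with 1 library left out, circles leave out the 5 T1 libraries of low TMM factor and diamonds have the log2 TMM factor as a term, where T0:T2 is at 0.00058 and T0:T1 at -0.93.

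Sex was not used to choose the gene. Trained horses gave repeat libraries, and the fits of sex over all periods and of sex by period counted these as separate mares or stallions. Over all periods, with period as a term, the log2 fold change of mares over stallions was -0.25 (standard error 0.18, 95% confidence interval -0.62 to 0.12, adjusted p = 0.43 from edgeR), where 0.0333% of genes were called (4 of 12025, and 2009 at an unadjusted p below 0.05). Within T1, however, mares were lower. The 5 T1 mares had 3.32 to 8.46 CPM with a mean of 5.60 ± 2.11 (SD, n = 5), and the 7 stallions had 6.79 to 22.5 with 13.1 ± 5.12 (SD, n = 7). The groups overlapped in that mare replicate 9, with 8.46 CPM, lay above stallion replicate 2, with 6.79 CPM. The log2 fold change of mares over stallions in T1 was -1.17 (standard error 0.30, adjusted p = 0.0041 from edgeR), in a comparison chosen after the data were seen in which 41% of genes were called (4931).

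Sex and TMM factor went together in T1: 4 of 5 mares and 1 of 7 stallions had a factor under 0.7. Without these 5 libraries, which leaves 1 mare, the T1 difference was -0.76 (standard error 0.52, adjusted p = 0.59 from edgeR), and with the log2 TMM factor as a term it was -0.25 (standard error 0.28, adjusted p = 0.83 from edgeR). In these fits 0 genes were called by edgeR (1205 and 969 at an unadjusted p below 0.05). Among untrained horses the mares had 32.0 ± 2.31 CPM (SD, n = 2) and the stallions 33.4 ± 1.97 CPM (SD, n = 4). The T2 mares had 25.7 ± 5.09 CPM (SD, n = 4) and the T2 stallions 20.04 ± 8.73 CPM (SD, n = 7). The T3 mares had 37.4 ± 8.72 CPM (SD, n = 4) and the T3 stallions 40.6 ± 10.3 CPM (SD, n = 4). Whether the difference between the sexes changed with period did not pass the test over all genes (adjusted p = 0.19 from edgeR, unadjusted p = 0.0070, n = 37 libraries), where 0 genes were called and 2554 had an unadjusted p below 0.05. It passed without T1 replicate 2 (adjusted p = 0.018) or replicate 9 (adjusted p = 0.034).

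**Figure D3:**
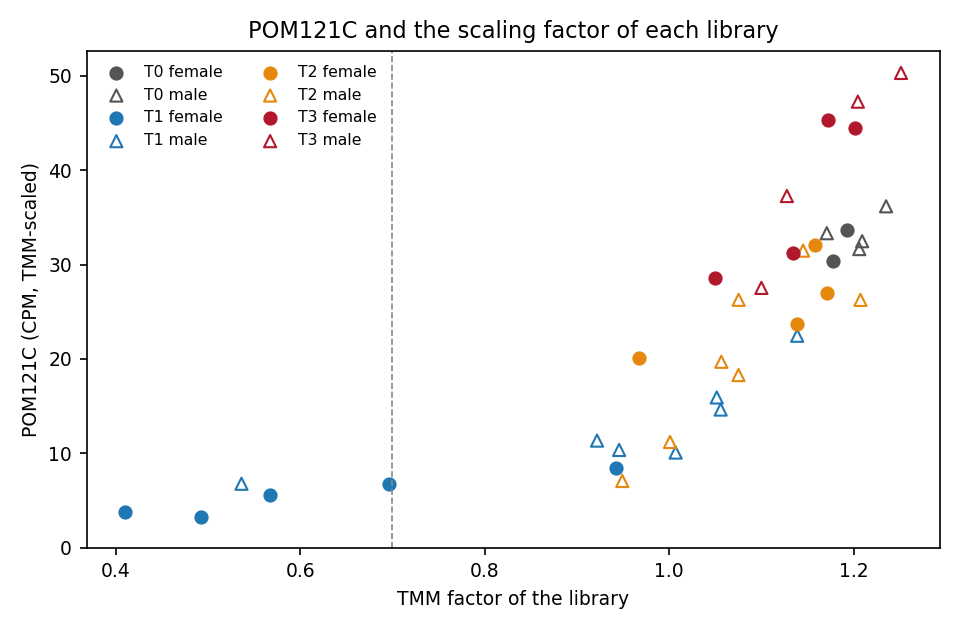
POM121C (vertical axis, TMM-scaled CPM) against the TMM factor of the library (horizontal axis, no unit), with 1 point per library, colours for periods and filled circles for mares. The 5 T1 libraries left of the dashed line at 0.7, of which 4 are from mares, have 3.32 to 6.79 CPM, and the 4 libraries with the highest levels, 44.4 to 50.3 CPM in T3, have factors of 1.17 to 1.25.

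POM121C was named by the study in a group of binding proteins with TBL1X, TAF1, SRCAP, AKAP11 and RBM27, which the study chose on these same libraries, so their directions are not independent evidence. TBL1X is a subunit of the corepressor complex of nuclear receptors, TAF1 the largest subunit of the general transcription factor TFIID, SRCAP a chromatin remodelling ATPase, AKAP11 an anchor of protein kinase A and RBM27 an RNA-binding protein. In T0:T1 all 5 were called lower in T1, as 29.2% of all genes were, and their median log2 fold change was -1.38 where the median of all genes was -0.05. In T0:T2 all 5 were called lower in T2, as 16.5% of all genes were, with a median of -0.88 against 0.04 for all genes, while POM121C, with -0.55, was not called. In T0:T2 the log2 fold change was -0.80 for SRCAP (standard error 0.26, adjusted p = 0.022 from edgeR) and -0.91 for AKAP11 (standard error 0.17, adjusted p = 0.0017 from edgeR). The balance of calls over all genes depended on the scaling: with library totals alone 1420 of 5914 calls in T0:T1 and 847 of 3560 in T0:T2 were rises, against 3340 of 6708 and 1979 of 3900 with TMM. With the log2 TMM factor as a term all 5 were still called in T0:T1 (median -0.83), where 2637 of 11544 genes were called in either direction. In T0:T2 with that term 0 of the 5 were called (median -0.43), and 43 of 11662 genes were called in either direction. In T0:T3, where 19.6% of all genes were called, 0 of the 5 were, with a median of 0.11 against -0.01. The study names the group in its account of genes that differ there. TAF1, however, was called without T3 replicate 2 (0.39) and with the TMM term (0.42).

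The 5 genes and POM121C divided the change over the season differently by value. From T1 to T2 the 5 had log2 fold changes of 0.39 to 0.88, below the 1.13 of POM121C, and from T2 to T3 they had 0.94 to 1.23, above its 0.80. From T1 to T3 they had 1.43 to 1.84, and POM121C had 1.94. These differences between genes were not tested. SRCAP, the nearest in T1:T2, had T1 libraries at 44.3 ± 19.6 CPM (SD, n = 12), T2 libraries at 80.9 ± 30.5 (SD, n = 11), T3 libraries at 158 ± 39.7 (SD, n = 8) and T0 libraries at 144 ± 6.03 (SD, n = 6). RBM27, the lowest in T1:T2, had 13.8 ± 2.55, 18.1 ± 5.69 and 37.3 ± 9.77 CPM (SD, n = 12, 11 and 8) in T1, T2 and T3.

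Among 12024 other genes, the 2 whose log2 CPM was most like that of POM121C over the 37 libraries carry no symbol in the sources used here. ENSECAG00000024475 had a Pearson correlation of 0.98 (Spearman 0.96) and ENSECAG00000018485 one of 0.98 (Spearman 0.95). Their log2 fold changes in T0:T1 were -1.77 (standard error 0.31) and -1.62 (standard error 0.32), close to that of POM121C, and in T1:T2 they were 1.04 (standard error 0.30) and 1.18 (standard error 0.29). The median correlation of all genes with POM121C was 0.19, 430 genes (3.58%) were above 0.9 and 849 were below -0.9. All genes of a library share its depth and composition, so these correlations are descriptions.

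Of the 57 other genes that the study prints with a symbol and an identifier, the most similar were SRCAP (0.92), TRAPPC10 (0.92), LY5 (0.91), TAF1 (0.90) and TBL1X (0.90). Among all 12024 other genes SRCAP ranked 196 and TBL1X, the last of these 5, ranked 477. The study printed many of the 57 as differing between periods of these same libraries, so this pool is not independent of the pattern. TRAPPC10 is a subunit of a complex that tethers transport vesicles. After the mean of each period was removed the 5 correlations were 0.78 to 0.80, where the median of all genes was 0.17, and those of ENSECAG00000024475 and ENSECAG00000018485 were 0.95 and 0.93. These values pool the deviations of all periods, and the likeness within any single period was not examined. Without the 5 T1 libraries of low TMM factor, SRCAP had 0.98, TBL1X 0.89, TRAPPC10 0.88, TAF1 0.84 and LY5 0.83, and SRCAP and TBL1X were still among the 5 most similar.

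**Figure D4:**
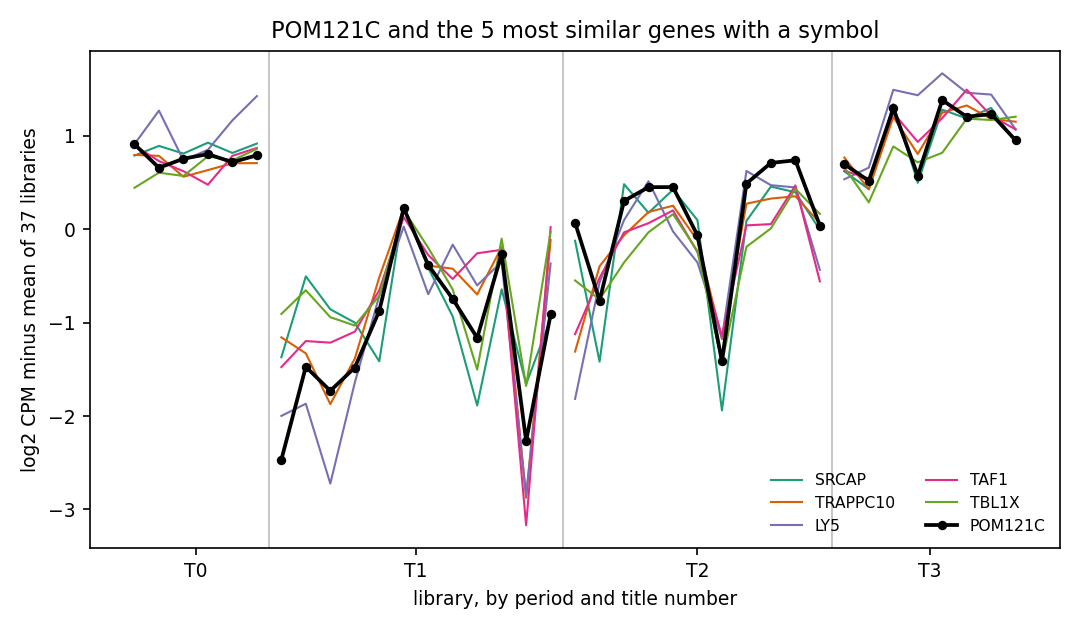
Log2 CPM of POM121C (black) and of the 5 most similar genes that have a symbol, each minus its mean over 37 libraries (vertical axis), by library in the order of period and title number (horizontal axis). The lines fall together in T1 replicate 11 and T2 replicate 7 and each reaches its highest value in T3, while SRCAP lies above POM121C in T1 replicates 1 to 4.

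The reference genes of the study's qPCR were SDHA, a subunit of succinate dehydrogenase, and GAPDH, an enzyme of glycolysis. In T0:T1, where POM121C had -1.71, SDHA had -0.11 on the log2 scale (standard error 0.13) and was not called. GAPDH, with 0.51 (standard error 0.19, edgeR adjusted p = 0.025), was called, but not without T0 replicate 1 (0.43) or replicate 3 (0.46), without the filter on low counts (0.43), without the 5 T1 libraries of low TMM factor (0.34) or with the TMM term (0.17). Both depended on the scaling: with library totals alone SDHA had -0.61 and was called, GAPDH had -0.10, and POM121C had -2.09.

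Of a list of 50 genes of the nuclear pore and envelope, POM121C itself was the 1 that could be paired with an identifier in the counts, so the other pore components were not analysed here. In the RefSeq annotation of assembly TB-T2T, POM121C lies between the protein-coding genes HIP1 and NSUN5. The other symbols there that begin with POM121 are POM121L2 and POM121L12. Of 39335 genes in that annotation 0 carry an Ensembl identifier, so this locus could not be tied to the gene counted here. Reads shared with related sequences were divided by RSEM and could not be told apart here.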

How the data were processed

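Blood RNA was sequenced as single-end reads from libraries made with a kit that does not mark strand. The authors trimmed reads with Flexbar, aligned them to EquCab2 with STAR and used RSEM to obtain expected counts of each gene. The deposited expected counts are rounded to whole numbers and not normalized. The authors' smaller tables, one per comparison, were not used. No 2 libraries were duplicates (lowest chi-square per degree of freedom 14.5). POM121C and the other genes were matched by identifiers the paper prints.

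The analysis used edgeR 4.0.16 (R 4.3.3) with filterByExpr, TMM factors, the quasi-likelihood F-test on the 2 periods compared and Benjamini-Hochberg adjustment over all genes tested, with calls at an adjusted p below 0.05 and 1.3-fold or more. A standard error is the log2 fold change's size over the square root of F. The sexes were compared in 37 libraries with period as a term. Log2 CPM had a prior count of 2. Scripts were tested on simulated data.

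The gene, the lists and the tests were chosen with earlier results of these data known. Genes were named by rule: POM121C, the 2 most correlated with it, the 5 most correlated among genes printed with a symbol, the group named with it by the study, nuclear pore genes and the qPCR reference genes. Alternatives were DESeq2 1.42.0, RLE size factors, library totals alone, the genes over 1% of counts left out of scaling, no filter, all libraries in one fit, sex, log2 TMM factor or title number as a term, a permutation test, other measures of likeness, and each library left out. Leaving out the 5 T1 libraries with a TMM factor under 0.7 and the sex difference by period were added after seeing the data.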

Additional observations from a re-analysis of the deposited data

How the results depend on the processing

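Of 54 repeats of the tested results of POM121C other than leaving out 1 library, 44 kept direction and side of the threshold. In 29 repeats of T1:T2, T2:T3 and T1:T3 (no test) the sign did not change. In T0:T1 the gene was called in all 11 (adjusted p from 1.9e-07 to 0.0013), and the exact permutation test of log2 CPM gave an unadjusted p = 0.00011. With 1 library left out T0:T1 was -1.85 to -1.62, called in 18 of 18. In T0:T2 (adjusted p from 0.016 to 1.0 over the alternatives) it was called with DESeq2 (-0.55), library totals alone (-0.69), the replicate block (-0.67, adjusted p = 0.016) and the exact permutation test (-0.68, p = 0.017), and reversed to 0.00058 with the log2 TMM factor as a term; with 1 library left out it was -0.62 to -0.45, called in 3 of 17, without T2 replicate 7, 9 or 10. In T0:T3 (adjusted p from 0.0032 to 0.72) it was called with the TMM term (0.39), and with 1 library left out it was 0.17 to 0.30, called in 0 of 14. With 1 library left out T1:T2 was 1.03 to 1.3, T2:T3 0.70 to 0.87 and T1:T3 1.86 to 2.11, and with the TMM term these values were 0.49, 0.46 and 1.2. The difference of mares over stallions reversed to 0.052 with the TMM term and to 0.012 without the 5 T1 libraries, and was -0.32 to -0.18 with 1 library left out. In T1 it was not called in these fits (-0.25 and -0.76), and was -1.37 to -0.97 with 1 left out. The adjusted p of sex by period was 0.018 to 0.45 with 1 left out. Without the 5 T1 libraries 2 of the 5 most similar genes remained.

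The title numbers were not taken to pair libraries. Same-numbered ones were of the same sex in 6 of 11 pairs in T1:T2, 3 of 8 in T2:T3, 5 of 8 in T1:T3 and 2 of 6 in T0:T2. They deviated together (r over 0.1) in 7 of 11 pairs in T1:T2 and in all pairs of no comparison. The replicate block, which treats them as pairs, gave -2.08 in T0:T1, 0.16 in T0:T3 and 1.25 in T1:T2. Numbers of genes called moved by over 1.5 times with the TMM term (2637 in T0:T1, 43 in T0:T2, 0 in T1:T2, 3268 in T2:T3, 4747 in T1:T3), with all libraries in one fit (2113 in T0:T2, 717 in T0:T3), with the block in T0:T3 (1447) and in T1 by sex (2853, and 0 with the TMM term or without the 5 T1 libraries, from 4931), with library totals alone (1754) and without the 5 T1 libraries (0) in T1:T2, in mares against stallions (from 4 to 9 with no filter or the TMM term, 1 with the block, 14 with DESeq2, and 7 without T0 replicate 4 or T1 replicate 2) and without T1 replicate 2 or 9 in sex by period (2799 and 2290). Of the genes named with POM121C, AKAP11 reversed in T0:T3 with the replicate block (-0.030) and with 1 library left out (-0.045 to 0.13). SDHA reversed in T0:T1 with the TMM term (0.079) and without the 5 T1 libraries (0.052), and GAPDH with library totals alone (-0.10). The causes were not tested.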
